A study of Saccharomyces cerevisiae with 8 samples.

Results

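The comparison set 1 caffeine-treated library of the Saccharomyces cerevisiae mutant pcf11-13 against 1 untreated library of the same mutant, 2 of the 8 libraries measured. Both were chosen by their labels alone, as the pcf11-13 samples with and without caffeine in experiment 1. All strains were W303 haploids with ura3-1, trp1Δ, ade2-1, leu2-3,112 (leu2-3,12 in the labels of pcf11-dNL) and his3-11,15, a chromosomal pcf11Δ::TRP1 deletion, and PCF11 supplied from the LEU2 plasmid pRS325. The pcf11-13 strain was MATa and its allele was untagged. The second mutant carried V5-pcf11-deltaN-linkMYC, a MATalpha strain grown in experiment 2 with 1 library per medium and called pcf11-dNL below. The wild type carried V5-PCF11-MYC, was MATalpha, and gave 1 library per medium in each of experiments 1 and 2. Mating type, tag and PCF11 allele thus differed together between pcf11-13 and the wild type. They cannot be told apart in any comparison of these strains below. Cultures were kept at 30 °C in YPAD, a rich medium with glucose. Treatment was 20 mM caffeine for 2 h. Untreated cultures were harvested, and treated ones received caffeine, at an OD of 1.0 to 1.2, so time in culture differed together with the drug. Poly(A) RNA was read from its 3′ end by direct RNA sequencing, which gave each gene a read count and the position of its transcript ends.

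Pcf11 is a subunit of cleavage factor IA, which with Rna14, Rna15 and Clp1 cleaves nascent transcripts ahead of poly(A) addition. Through its CTD-interacting domain Pcf11 also contacts the tail of RNA polymerase II and takes part in termination. Caffeine inhibits TORC1, the kinase complex that keeps ribosome synthesis on and the use of poor nitrogen sources off while nutrients are plentiful, and it also activates the cell wall integrity pathway. A gene with several poly(A) sites can make mRNAs with shorter or longer 3′ untranslated regions, or truncated transcripts that end before the 3′ untranslated region. The question was how the drug altered gene expression and poly(A) site choice when Pcf11 carried this mutation.

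The treated pcf11-13 library held 2088078 counts and the untreated one 2393801. Totals over all 8 libraries ran between 1070278 and 4555751. Of 5933 genes listed, 5849 had enough counts to be tested. Both wild-type libraries of experiment 1 stood apart: URA3 and the 2-micron plasmid genes took 11.4% of counts with caffeine and 8.36% without, against 0.252 to 0.463% in the other 6 libraries. CYC1, which encodes cytochrome c, had 95.5% and 94.0% of its reads truncated in those same libraries and 1.11 to 11.2% elsewhere. The wild type is therefore given below by experiment.

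PCF11 itself (chromosome IV, 921926 to 923806, sacCer3) was read at 222 CPM (counts scaled by library size and composition) in caffeine-treated pcf11-13 cells and at 189 CPM in untreated pcf11-13 cells. In pcf11-dNL it was at 110 CPM with caffeine and 133 CPM without, and in the wild type at 134 and 111 CPM with caffeine and 205 and 109 CPM without (experiments 1 and 2). The plasmid gene and any allele-specific change of its sequence are not told apart by these counts. Mating-type genes matched the labels. MFA1, the a-factor gene, had 774 CPM with and 1197 CPM without caffeine in pcf11-13, against 32.7 to 79.5 CPM in the 6 MATalpha libraries. STE2, the alpha-factor receptor gene, had 667 CPM with and 492 CPM without caffeine, against 33.3 to 68.3 CPM.

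Among the gene lists examined, nitrogen catabolite repression genes and glyoxylate cycle, gluconeogenesis and acetate genes had the highest median response to caffeine in pcf11-13, both 0.82 on the log2 scale, and histone genes the lowest, −1.58. On CPM with a prior count of 2, 295 genes were at least 2-fold higher (5.04% of those tested) and 231 at least 2-fold lower (3.95%). These shares are the background for each count of list members past 2-fold in pcf11-13 given below. The same count in pcf11-dNL was 835 higher (14.3%) and 704 lower (12%). In the wild type it was 696 higher (11.9%) and 440 lower (7.52%) in experiment 1, and 970 higher (16.6%) and 879 lower (15%) in experiment 2. The SD of the log2 response over genes was 0.615 in pcf11-13, 0.991 in pcf11-dNL, and 0.873 and 1.107 in the wild type. Untreated wild-type libraries of the 2 experiments differed from each other with an SD of 0.577, and the treated ones with an SD of 0.462. Outside pcf11-13 the treated libraries were deeper than their untreated partners. Among 4934 genes with a mean of 100 counts or more, 251 were at least 2-fold higher in pcf11-13 (5.09%) and 146 lower (2.96%), against 12.3 to 17.2% higher and 7.32 to 15.3% lower in the other 3 pairs. In bulk RNA, fewer cells making an mRNA and less of it in each cell cannot be told apart.

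No gene was called between the pcf11-13 libraries by edgeR's quasi-likelihood test (0%), whose spread came from the wild-type pairs and whose smallest Benjamini-Hochberg adjusted p was 0.0829. At an unadjusted p under 0.05 there were 369 genes higher (6.31%) and 332 lower (5.68%). DESeq2 called 60 of the 4148 genes it gave an adjusted p (1.45%), 41 higher and 19 lower. edgeR called 161 genes when the treated wild-type library of experiment 1 was left out and 172 when that of experiment 2 was left out, but 0 without either untreated wild-type library. Leaving out a treated wild-type library leaves only the untreated wild-type pair for the spread, so those fits are not separate checks. Genes below are therefore described by their values, with a single library on each side. Fits borrow the wild type's spread for pcf11-13, which has no replicate of its own.

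The response overlapped that of the wild type. Of the 295 genes at least 2-fold higher in pcf11-13, 191 were at least 2-fold higher in both wild-type pairs. That is 64.7% of the pcf11-13 list and 35.9% of the wild-type list of 532, where 5.04% of all 5849 genes were higher in pcf11-13. None of the 295 was 2-fold lower in both, as 322 of the 5849 genes were. On the lower side 62 genes were shared, 26.8% of the pcf11-13 list and 19.3% of the 322 wild-type genes, beside 3.95% of all genes lower in pcf11-13. The pcf11-dNL list held 208 of the pcf11-13 genes that were higher, 70.5% of them and 24.9% of its own. It held 95 of those that were lower, 41.1% of them and 13.5% of its own. Over all genes 14.3% were at least 2-fold higher and 12% lower in pcf11-dNL. The pcf11-13, pcf11-dNL and wild-type pairs share no library.

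**Figure D1:**
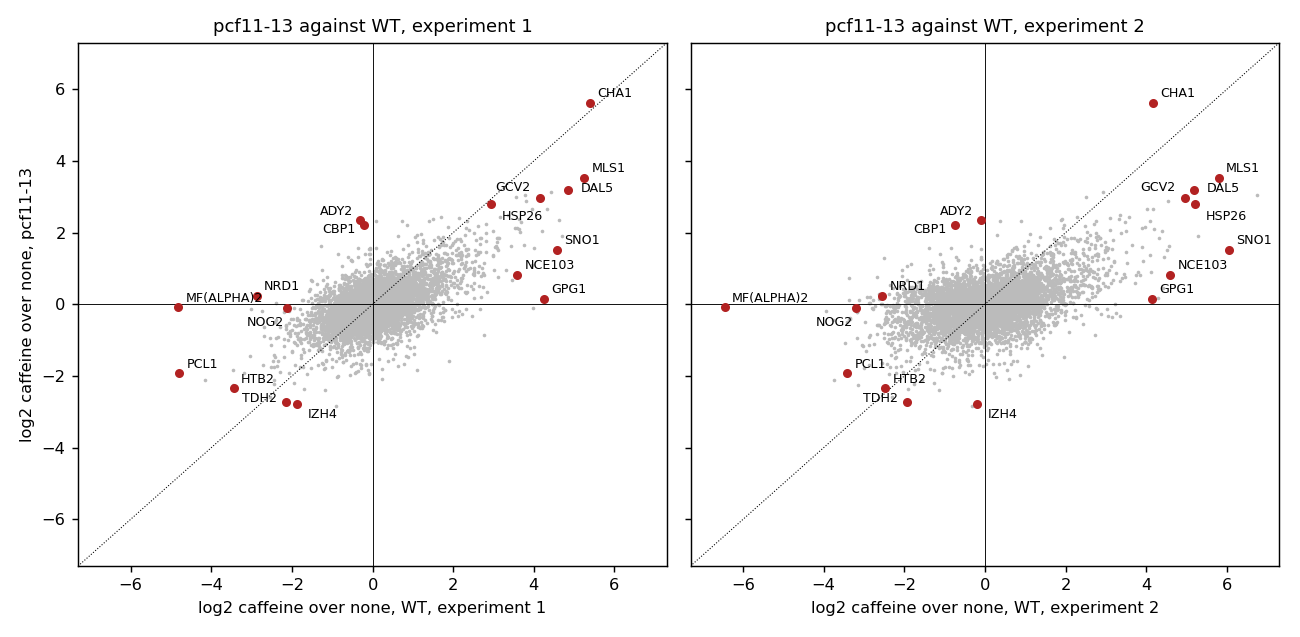
Log2 caffeine response of each gene in pcf11-13 (vertical axis) against the wild type of experiment 1 and of experiment 2 (horizontal axes), 1 point a gene, with the dotted line marking an equal response. CHA1, MLS1 and DAL5 lie high in both strains, whereas CBP1 and ADY2 lie high in pcf11-13 alone and GPG1, SNO1 and NCE103 lie far to the right of the line.

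Genes that edgeR called between treated and untreated wild-type cells gave a common yardstick: 1000 were higher (17.1%) and 849 lower (14.5%). The wild-type values of these genes chose them, which enlarges the wild-type medians, so these are given as a description. Neither mutant entered that contrast. The 1000 higher genes had a median log2 response of 0.48 in pcf11-13 and 1.22 in pcf11-dNL, beside 1.16 and 1.38 in the wild type. Their median level in pcf11-13 was 132.2 CPM with caffeine and 87.8 CPM without. In pcf11-dNL it was 158 CPM with caffeine and 65.3 CPM without. They had the wild-type sign in pcf11-13 for 833 genes (83.3%), and 220 (22%) passed 2-fold there against 643 (64.3%) in pcf11-dNL. The 849 lower genes had medians of −0.41 in pcf11-13 and −1.11 in pcf11-dNL, beside −0.95 and −1.35 in the wild type, with 682 (80.3%) keeping the sign in pcf11-13. Their median level in pcf11-13 was 88.0 CPM with caffeine and 116.3 CPM without.

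CHA1, the serine and threonine deaminase gene that serine itself induces (chromosome III, 15798 to 16880), had the largest difference of the genes that averaged 50 counts or more in the pcf11-13 pair. It stood at 3819 CPM with caffeine and 76.9 CPM without in pcf11-13. It stood at 4506 CPM with caffeine and 182 CPM without in pcf11-dNL, and at 4484 and 4590 CPM with caffeine and 106 and 256 CPM without in the wild type. All 4 treated libraries were far above all 4 untreated ones. The log2 difference in pcf11-13 was 5.62 (edgeR adjusted p = 0.0931, DESeq2 adjusted p = 2.14e-19). MLS1 encodes malate synthase of the glyoxylate cycle and had 181 CPM with and 15.0 CPM without caffeine in pcf11-13. In the wild type MLS1 had 253 and 367 CPM with caffeine and 5.95 and 5.88 CPM without, so its untreated level was higher in the mutant. DLD3, a D-lactate dehydrogenase gene, had 1378 CPM with and 158 CPM without caffeine in pcf11-13, a log2 difference of 3.12. GCV2 encodes the P subunit of glycine decarboxylase and had 279 CPM with and 35.3 CPM without, a log2 difference of 2.96. ARO9, an aromatic aminotransferase gene, had 947 CPM with and 129 CPM without in pcf11-13, against 2225 and 4728 CPM with caffeine and 159 and 201 CPM without in the wild type. DIP5, the acidic amino acid permease gene, had 1087 CPM with and 136 CPM without. DAK2, a dihydroxyacetone kinase gene, had 832 CPM with and 99.8 CPM without in pcf11-13, and 1703 CPM with and 22.4 CPM without in pcf11-dNL. In the wild type DAK2 had 270 and 1064 CPM with and 18.9 and 9.15 CPM without. HSP26, a small heat shock protein gene, had 435 CPM with and 61.5 CPM without in pcf11-13, and 112 and 676 CPM with and 13.9 and 17.6 CPM without in the wild type. YJL213W, an uncharacterised gene, had 750 CPM with and 118 CPM without in pcf11-13. Untreated HSP26 and DAK2 were thus higher in pcf11-13 than in any other untreated library.

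On the lower side TDH2, a glyceraldehyde-3-phosphate dehydrogenase gene, had 677 CPM with caffeine and 4457 CPM without in pcf11-13. It had 637 CPM with and 3684 CPM without in pcf11-dNL, and 838 and 917 CPM with and 3718 and 3486 CPM without in the wild type. The log2 difference in pcf11-13 was −2.72, and again no treated library reached an untreated one. TDH2 has close paralogs, so its reads may be shared with TDH3. OLE1, the fatty acid desaturase gene, had 263 CPM with caffeine and 1153 CPM without in pcf11-13, and 134 and 221 CPM with and 733 and 656 CPM without in the wild type. IZH4, a membrane protein gene linked to zinc metabolism, had 42.7 CPM with and 296 CPM without in pcf11-13. IZH4 had 28.2 CPM with and 119 CPM without in pcf11-dNL, and 24.0 and 30.0 CPM with and 90.3 and 34.6 CPM without in the wild type, so the untreated pcf11-13 library was the highest of all 8. INA1, LDB7, CSI2 and PIR5 completed, at the same minimum of 50 counts, the 10 genes with the largest lower values beside the histone genes HTB1, HTB2 and HTA2, with log2 differences of −2.58, −2.39, −2.25 and −2.20. AIM4, with 12.4 CPM with and 54.8 CPM without caffeine, had a log2 difference of −2.07 in pcf11-13 and 0.24 and 0.60 in the wild type. OCA2, a phosphatase-like gene, had 68.9 CPM with and 264 CPM without, with log2 differences of −1.93 in pcf11-13 and −0.09 and 0.24 in the wild type. The difference between strains for AIM4 and OCA2 was not called by edgeR with all 8 libraries.

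**Figure D2:**
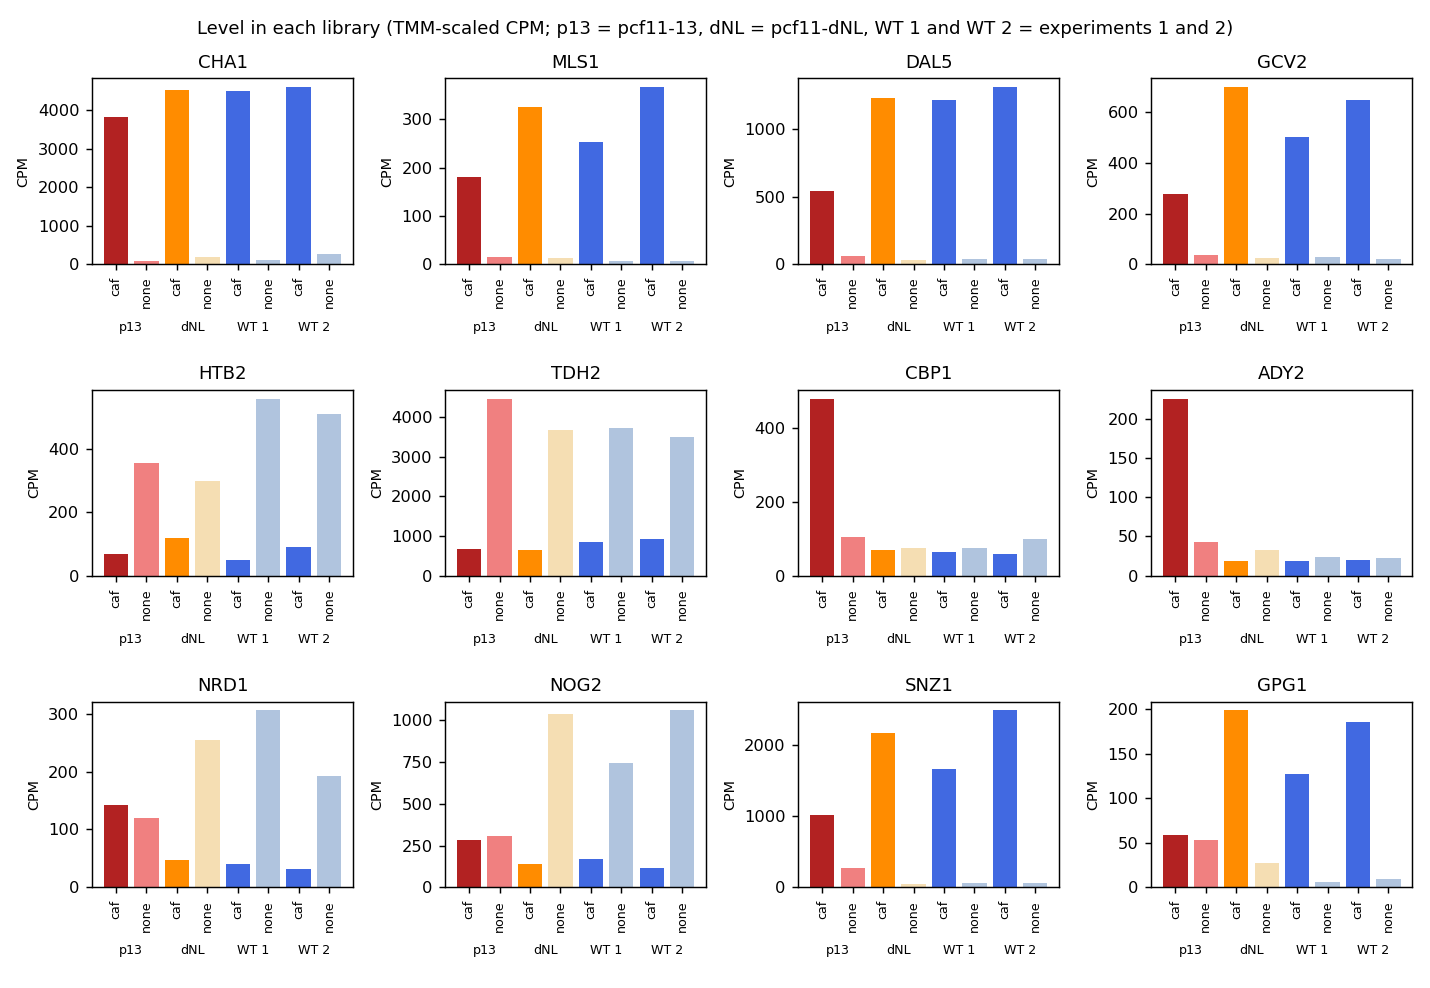
Level of 12 genes in each of the 8 libraries (CPM, linear axis from 0, 1 bar a library), with pcf11-13 at the left, then pcf11-dNL and the wild type of experiments 1 and 2, caffeine left of none in each. CHA1 is high in all 4 treated libraries, CBP1 and ADY2 are high in treated pcf11-13 alone, and NRD1 and NOG2 are low in every treated library except that of pcf11-13.

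Genes under nitrogen catabolite repression, which TORC1 keeps low by holding the GATA activators Gln3 and Gat1 in the cytoplasm, were higher with caffeine in all strains by their median. Of 32 tested, 14 were at least 2-fold higher in pcf11-13 and 0 lower, beside 5.04% and 3.95% of all genes. Their median log2 response was 0.82 in pcf11-13, 1.50 in pcf11-dNL, and 1.55 and 2.01 in the wild type, beside 0.00 over all genes. Median levels in pcf11-13 were 177 CPM with caffeine and 110 CPM without. DAL5, the allantoate permease gene, had 538 CPM with and 58.2 CPM without in pcf11-13, and 1213 and 1308 CPM with and 41.7 and 35.3 CPM without in the wild type (log2 difference in pcf11-13 3.19, edgeR adjusted p = 0.0829). CPS1, a vacuolar carboxypeptidase gene, had 619 CPM with and 109 CPM without in pcf11-13. VBA1, a vacuolar basic amino acid transporter gene, had 477 CPM with and 111 CPM without. CAR1 encodes arginase and had 174 CPM with and 39.0 CPM without, and PUT1 encodes proline oxidase and had 844 CPM with and 242 CPM without. These permease and catabolic genes were higher in every treated library, pcf11-13 included. Other members of the list differed less or the other way. GAP1, the general amino acid permease gene, had 483 CPM with and 784 CPM without in pcf11-13. DAL80, a GATA repressor gene that is itself a target of the pathway, had 68.9 CPM with and 49.9 CPM without, a log2 difference of 0.46 against 2.15 and 4.41 in the wild type. GDH2, the catabolic glutamate dehydrogenase gene, had 266 CPM with and 258 CPM without. On edgeR's test of the difference from the wild-type response, 11 of the 32 had an unadjusted p under 0.05 and all 11 were lower in pcf11-13, beside 8.34% of all genes. None was called after adjustment with all 8 libraries. The differences in response were −2.879 for DAL80 and −2.115 for DAL4, an allantoin permease gene, on the log2 scale.

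The GATA activators read GATAAG. In the 500 bases before the start codon, on either strand, GATAAG was found for 22.6% of 5817 genes and for 25 of the 32 list members (78.1%). Among the genes at least 2-fold higher in pcf11-13 the share was 25.5%, and among those at least 2-fold lower 19.2%. For 2 or more matches the share was 7.82% of the higher genes, 1.31% of the lower and 3.68% of all genes. Ribosome biogenesis genes are known for the PAC element, GATGAG, which differs from GATAAG in 1 letter, so no match to one is a match to the other. GATGAG stood before 28.4% of all genes and 98 of 109 ribosome biogenesis genes (89.9%). Both lists gather genes already tied to these factors or elements, so high shares were likely beforehand. Whether the matches relate to the caffeine response was not tested. The windows below, read from the R64 genome (sacCer3) on the strand of the gene, show one match for genes whose levels are given here, with the motif or its reverse complement (CTTATC for the GATA site or CTCATC for the PAC element) in capitals. DAL5 is at chrX:719483-719512 (+), CPS1 at chrX:97549-97578 (+), VBA1 at chrXIII:445336-445365 (−), GAP1 at chrXI:514809-514838 (+), NOG2 at chrXIV:723276-723305 (−) and DHR2 at chrXI:288767-288796 (+).
DAL5: atacggctaataCTTATCattatctggttt
CPS1: cgccaccCTTATCTTATCatagcggccttt
VBA1: ggcttagcctatCTTATCttcagtattcgc
GAP1: taaattaaacatGATAAGcgcatagttggg
NOG2: ttttgcccgatgCTCATCgcaaaaattttt
DHR2: tcGATGAGATGAGATGAGgttatgatatat
The CPS1 and DHR2 windows hold overlapping matches. GAP1 holds the same letters as DAL5 and was lower, not higher, in treated pcf11-13 cells, so a match does not tell the direction.

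The list of gluconeogenesis, glyoxylate cycle and acetate or carnitine genes, which glucose represses, held 10 of 21 genes at least 2-fold higher in pcf11-13 and 0 lower. Their median log2 response of 0.82 in pcf11-13 stood beside 0.79 in pcf11-dNL and 1.09 and 1.18 in the wild type. Their median level was 166 CPM with and 69.4 CPM without caffeine in pcf11-13, against 78.3 and 95.3 CPM with and 25.8 and 29.4 CPM without in the wild type. In pcf11-dNL it was 107.2 CPM with and 44.8 CPM without. Both mutants were thus above the wild type, with and without caffeine. YAT1 and YAT2 encode carnitine acetyltransferases. YAT1 had 74.7 CPM with and 11.3 CPM without, and YAT2 had 518 CPM with and 113 CPM without, in pcf11-13. JEN1, the lactate and pyruvate permease gene, had 494 CPM with and 149 CPM without, and CRC1, the mitochondrial carnitine carrier gene, had 93.8 CPM with and 19.1 CPM without. MDH2 and FBP1, for malate dehydrogenase and fructose-1,6-bisphosphatase, had log2 differences of −0.47 and −0.57. PYC1 and CIT2 refill the same pathways: pyruvate carboxylase (PYC1) had 524 CPM with and 107 CPM without, and peroxisomal citrate synthase (CIT2), the classic target of the retrograde pathway, had 2726 CPM with and 627 CPM without. Of 10 retrograde genes 3 were at least 2-fold higher and 0 lower, with a median of 0.26.

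Of 17 genes for glycine and one-carbon metabolism 6 were at least 2-fold higher and 0 lower, with a median of 0.44 in pcf11-13, 1.07 in pcf11-dNL and 0.40 and 0.84 in the wild type. GCV1 and GCV3, for other subunits of glycine decarboxylase, had 355 and 189 CPM with caffeine and 124 and 62.3 CPM without in pcf11-13. SHM2, cytosolic serine hydroxymethyltransferase, had 754 CPM with and 243 CPM without, a log2 difference of 1.63 against 3.43 and 4.57 in the wild type. Gcn4 targets, which make amino acids, gave 6 of 54 at least 2-fold higher and 1 lower, with a median of 0.24. ARG3, ornithine carbamoyltransferase, had 107 CPM with and 27.0 CPM without. LYS4, homoaconitase, had 854 CPM with and 344 CPM without in pcf11-13, a log2 difference of 1.31 where the wild type had −0.61 and −0.10. Of 24 purine genes 4 were at least 2-fold higher and 0 lower. Of 20 vitamin B6 and thiamine genes 5 were higher and 1 lower.

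Environmental stress response genes, induced through Msn2 and Msn4 at the AGGGG element, differed less in pcf11-13 than in the wild type. Of 62 tested, 9 were at least 2-fold higher in pcf11-13 and 1 lower. Their median log2 response was 0.43 in pcf11-13, 0.20 in pcf11-dNL, and 1.12 and 1.49 in the wild type. Median levels were 200.5 CPM with and 134 CPM without in pcf11-13, against 134 and 188 CPM with and 56.6 and 61.7 CPM without in the wild type. In pcf11-dNL they were 170.6 CPM with and 146.5 CPM without. The untreated level was thus higher in both mutants than in the wild type. For 21 of the 62 the response in pcf11-13 was lower than in the wild type at an unadjusted p under 0.05 by edgeR, and for 1 it was higher, beside 8.34% and 5.78% of all genes. None was called after adjustment with all 8 libraries. For SDP1, a phosphatase gene, the difference in response was −3.363 on the log2 scale. DDR2, a stress gene of unknown function, had 2798 CPM with and 1083 CPM without in pcf11-13, and 821 and 1431 CPM with and 103 and 83.6 CPM without in the wild type. GLK1, glucokinase, had 421 CPM with and 726 CPM without in pcf11-13, and 604 and 712 CPM with and 202 and 233 CPM without in the wild type. In pcf11-dNL GLK1 had 699 CPM with and 1463 CPM without, so both mutants were lower with caffeine where the wild type was higher. STF2, an ATP synthase stabilizing factor gene, had 563 CPM with and 1707 CPM without in pcf11-13. Of 29 heat shock genes 5 were at least 2-fold higher and 0 lower, with a median of 0.56 beside 1.11 and 1.03 in the wild type. HSP82, an Hsp90 gene, had 938 CPM with and 234 CPM without in pcf11-13.

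Ribosome biogenesis genes, the list most known to fall when TORC1 is inhibited, were near 0 in pcf11-13. Of 109 tested, 0 were 2-fold higher or lower, 58 lay above 0, and the median was 0.03, against −0.90 in pcf11-dNL and −0.43 and −1.63 in the wild type. Scaled by total counts in place of TMM, the pcf11-13 median was −0.02. Median levels were 116 CPM with and 108 CPM without in pcf11-13. They were 71.9 CPM with and 137 CPM without in pcf11-dNL, and 95.9 and 70.5 CPM with and 141 and 230 CPM without in the wild type. The untreated pcf11-13 level lay below every other untreated library. On edgeR's test of the difference 47 of the 109 had an unadjusted p under 0.05, all higher in pcf11-13, beside 5.78% of all genes. None of the 109 was called after adjustment with all 8 libraries. DHR2 and RSA4, ribosome assembly genes outside the list, had differences in response of 2.184 and 2.171 on the log2 scale, also not called. NOG2, a GTPase gene for the large ribosomal subunit, had 284 CPM with and 305 CPM without in pcf11-13, and 171 and 115 CPM with and 745 and 1060 CPM without in the wild type. Its response was 2.55 higher on the log2 scale than in the wild type (edgeR adjusted p = 0.249). DHR2, which encodes a helicase, had 64.0 CPM with and 66.8 CPM without in pcf11-13, and 40.1 and 39.6 CPM with and 107 and 268 CPM without in the wild type. NOP16 and UTP5, both for ribosome assembly, marked the ends of the list at log2 differences of −0.88 and 1.00 in pcf11-13.

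Ribosomal protein genes had 111 of 137 above 0 in pcf11-13, with 2 at least 2-fold higher, 1 at least 2-fold lower and a median of 0.33. The median was −0.12 in pcf11-dNL and −0.26 and −1.06 in the wild type. Median levels were 600.6 CPM with and 468.7 CPM without in pcf11-13, against 696.7 and 467 CPM with and 822.7 and 1069 CPM without in the wild type. RPL9B had 569 CPM with and 263 CPM without, and RPS22B had 348 CPM with and 1125 CPM without, in pcf11-13. Most yeast ribosomal protein genes have a near-identical copy, so their single values are uncertain. RNA polymerase I and III subunit genes gave 0 of 21 past 2-fold in either direction and a median of 0.13 in pcf11-13, −0.49 in pcf11-dNL, and −0.36 and −1.17 in the wild type. RPA190, the largest subunit of polymerase I, had 182 CPM with and 244 CPM without in pcf11-13.

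Histone genes were lower in all 4 treated libraries. None of 11 lay above 0 in pcf11-13, 6 were at least 2-fold lower, and the median was −1.58 there, −1.45 in pcf11-dNL and −2.36 and −1.77 in the wild type. HTB2, a histone H2B gene, had 69.3 CPM with and 356 CPM without in pcf11-13, and 50.7 and 90.8 CPM with and 559 and 510 CPM without in the wild type. HTA2, a histone H2A gene, had 119 CPM with and 515 CPM without in pcf11-13. CSE4, the centromeric histone gene, had a log2 difference of −0.09. Histone mRNAs are made in S phase, and the cell cycle stage of the cultures was not measured. Of 32 cyclin and cell cycle genes 1 was at least 2-fold higher and 1 lower, beside 5.04% and 3.95% of all genes. The lower one was PCL1, a G1 cyclin gene with 32.5 CPM with and 126 CPM without in pcf11-13. Of 21 glycolysis genes 8 were at least 2-fold lower and 1 higher, with a median of −0.63 in pcf11-13, −1.39 in pcf11-dNL and −0.06 and −0.81 in the wild type. ENO1, enolase, had 595 CPM with and 2388 CPM without, TPI1, triosephosphate isomerase, had 1716 CPM with and 6311 CPM without, and PDC6, the minor pyruvate decarboxylase gene, had a log2 difference of 1.85.

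**Figure D3:**
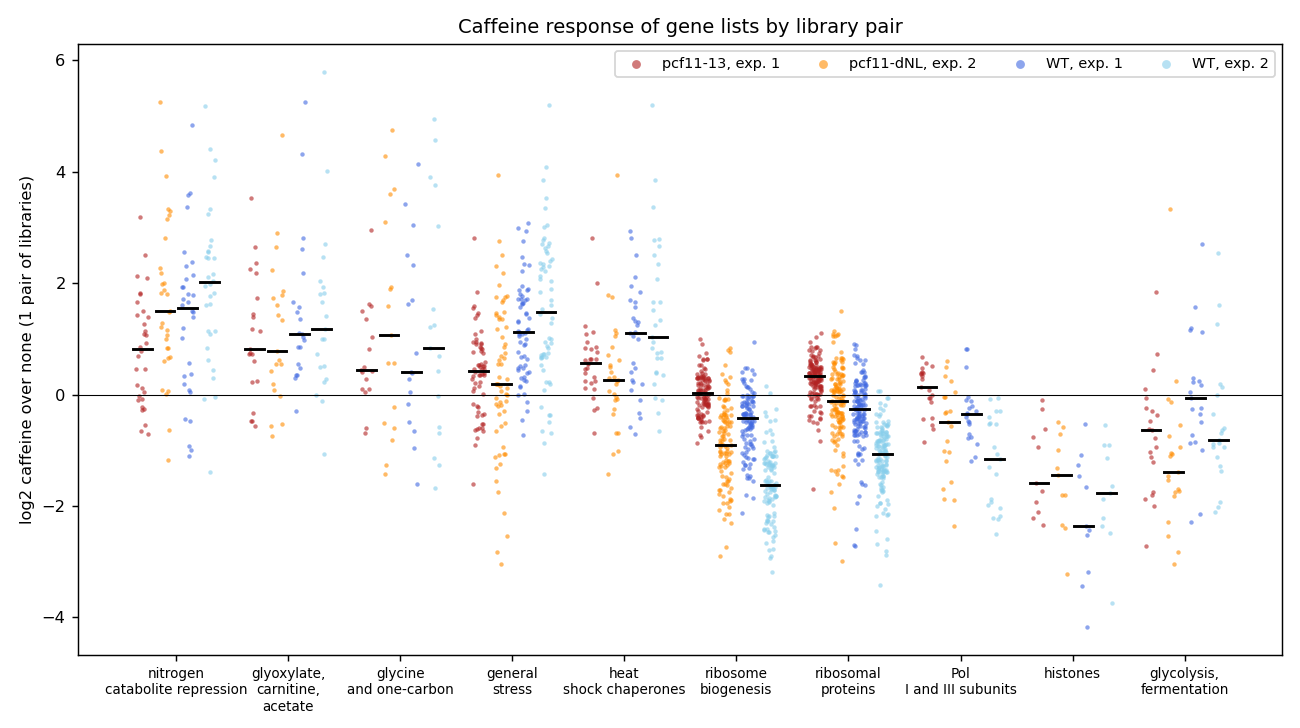
Log2 caffeine response of the genes in 10 lists (1 point a gene, bar the median) in pcf11-13, pcf11-dNL and the wild type of experiments 1 and 2. The ribosome biogenesis median is 0.03 in pcf11-13 and −0.90, −0.43 and −1.63 in the other pairs, whereas the histone medians lie between −1.45 and −2.36 in all 4.

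Among the other lists, cell wall genes, which the integrity kinase Slt2 induces, had a median of −0.13 in pcf11-13 and 0.11 and 0.39 in the wild type, with 1 of 40 at least 2-fold higher and 3 lower. PST1, a cell wall protein gene used as a reporter of that pathway, had 1242 CPM with and 828 CPM without in pcf11-13, a log2 difference of 0.58 beside 2.52 and 3.73 in the wild type. PIR3, another wall protein gene, had 0.51 beside 2.63 and 2.79. Phosphate genes had a median of −0.31 in pcf11-13 and −0.87 and −1.04 in the wild type, with 1 of 21 at least 2-fold higher and 3 lower. Autophagy genes had a median of 0.09, with 3 of 35 higher and 0 lower, among them ATG32, the mitophagy receptor gene, at 301 CPM with and 84.1 CPM without. Oxidative stress genes under Yap1 had a median of 0.41 in pcf11-13, 0.24 in pcf11-dNL and 0.72 and 0.66 in the wild type, with 2 of 21 at least 2-fold higher and 0 lower. Drug resistance genes under Pdr1 had a median of 0.37 with 3 of 15 higher. Proteasome genes had a median of −0.21 with 1 of 34 lower, and trehalose and glycogen genes a median of 0.11 with 1 of 20 higher. Over all genes 5.04% were at least 2-fold higher in pcf11-13 and 3.95% lower, so several of these counts lie near the background.

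The difference between the response of pcf11-13 and that of the wild type was tested for each gene in the same fit. edgeR called 0 genes (0%), with a smallest adjusted p of 0.14. At an unadjusted p under 0.05 the response was higher in pcf11-13 for 338 genes (5.78%) and lower for 488 (8.34%). DESeq2 called 42 of 2674 genes (1.57%), 15 higher and 27 lower. edgeR called 177 and 71 genes without the treated wild-type library of experiments 1 and 2, and 0 without either untreated one.

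CBP1, which protects mitochondrial cytochrome b mRNA, had 479 CPM with and 104 CPM without caffeine in pcf11-13. It had 69.4 CPM with and 74.7 CPM without in pcf11-dNL, and 64.6 and 58.8 CPM with and 74.4 and 98.6 CPM without in the wild type. The treated pcf11-13 library was the only high one, and the difference in response was 2.70 (edgeR adjusted p = 0.14, DESeq2 adjusted p = 0.00328). ADY2, an acetate transporter gene, had 225 CPM with and 43.5 CPM without in pcf11-13 and 19.1 to 32.7 CPM in the other 6 libraries. NRD1 encodes the RNA-binding subunit of the termination complex for short noncoding transcripts. It had 142 CPM with and 120 CPM without in pcf11-13, 47.9 CPM with and 254 CPM without in pcf11-dNL, and 40.9 and 32.4 CPM with and 306 and 193 CPM without in the wild type. NRD1 was thus low in 3 of 4 treated libraries and not in that of pcf11-13, a difference in response of 3.00 ± 0.49 (SE; edgeR adjusted p = 0.158, DESeq2 adjusted p = 0.0015). URA7, a CTP synthase gene, had 116 CPM with and 108 CPM without in pcf11-13, and 62.1 and 60.6 CPM with and 206 and 536 CPM without in the wild type. HXT1, a low-affinity glucose transporter gene, had 102 CPM with and 60.8 CPM without in pcf11-13, and 68.9 and 54.5 CPM with and 75.4 and 570 CPM without in the wild type, whose untreated libraries differ widely. MF(ALPHA)2 and STE3 also had large differences, 5.69 and 2.76, but belong to the other mating type. MF(ALPHA)2, an alpha-factor gene, had 26.7 CPM with and 28.1 CPM without in the MATa strain, and 35.1 and 24.8 CPM with and 1016 and 2241 CPM without in the wild type.

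Genes with a smaller response in pcf11-13 had a high untreated level there, a low treated level, or both. GPG1, which acts in the glucose-sensing G protein pathway, had 58.7 CPM with and 52.5 CPM without in pcf11-13, and 127 and 185 CPM with and 5.95 and 9.80 CPM without in the wild type. SNZ1 and SNO1, neighbouring genes for vitamin B6 synthesis, followed the same form. SNZ1 had 1022 CPM with and 275 CPM without in pcf11-13, and 1661 and 2487 CPM with and 63.5 and 63.4 CPM without in the wild type. SNO1 had 142 CPM with and 48.8 CPM without in pcf11-13, and 300 and 350 CPM with and 11.9 and 4.57 CPM without in the wild type. NCE103, carbonic anhydrase, had 984 CPM with and 553 CPM without in pcf11-13, and 1209 and 4015 CPM with and 100 and 166 CPM without in the wild type. ADE17, a purine synthesis gene, had 77.4 CPM with and 69.0 CPM without in pcf11-13, and 198 and 320 CPM with and 33.7 and 15.7 CPM without in the wild type. SDP1, a phosphatase gene for the wall integrity kinase, had 25.3 CPM with and 32.3 CPM without in pcf11-13, and 68.9 and 86.3 CPM with and 11.9 and 7.84 CPM without in the wild type.

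Of 48 genes for 3′-end processing and termination 0 were at least 2-fold higher with caffeine in pcf11-13 and 2 lower, beside 5.04% and 3.95% of all genes, with a median of −0.22 beside −0.28 in pcf11-dNL and −0.39 and −0.33 in the wild type. RNA14, RNA15 and CLP1, the partners of Pcf11 in cleavage factor IA, had 153, 118 and 67.1 CPM with caffeine and 177, 138 and 73.5 CPM without in pcf11-13. SPT4, an elongation factor gene, had 57.3 CPM with and 196 CPM without in pcf11-13, and 70.4 and 52.0 CPM with and 246 and 244 CPM without in the wild type, so all treated libraries were low. SYC1, a gene for a subunit of the cleavage and polyadenylation factor, had 18.7 CPM with and 40.5 CPM without in pcf11-13 and 59.1 to 119 CPM in the other 6 libraries. HRP1, cleavage factor IB, had 394 CPM with and 385 CPM without in pcf11-13, with log2 differences of 0.73 and 1.44 in the wild type. RAT1, the exonuclease of torpedo termination, had 177 CPM with and 113 CPM without in pcf11-13, a log2 difference of 0.64 against −0.47 and −1.07 in the wild type. MTR4, the helicase of the TRAMP complex, had 184 CPM with and 142 CPM without in pcf11-13, 0.37 against −0.52 and −1.62. For none of these was the difference between strains called by edgeR with all 8 libraries.

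The median 3′ untranslated region had the same length with and without caffeine in pcf11-13 and was shorter with caffeine in the other strains. Among 5165 genes that passed a minimum of 20 counts in each library, it was 142.5 nt in both pcf11-13 libraries. It was 134.1 nt with and 148.7 nt without in pcf11-dNL, and 132.6 and 132.4 nt with and 142.8 and 141.2 nt without in the wild type. The median difference per gene was 1.35 nt in pcf11-13, −7.39 nt in pcf11-dNL, and −4.14 and −4.19 nt in the wild type. Between wild-type replicates it was −0.127 nt without and −0.461 nt with caffeine. In pcf11-13, 421 genes were at least 30 nt longer with caffeine (8.15%) and 326 at least 30 nt shorter (6.31%). At least 30 nt shorter were 1027 genes in pcf11-dNL (19.9%) and 812 and 625 in the wild type (15.7% and 12.1%). limma called 0 genes for the pcf11-13 response (0%) and 0 for its difference from the wild type (0%), with 528 and 683 genes at an unadjusted p under 0.05.

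The order of the strains was the same in the length classes given here. For 1309 genes whose untreated wild-type length was 200 nt or more, the median difference was 4.08 nt in pcf11-13, −12 nt in pcf11-dNL and −8.65 and −5.77 nt in the wild type. For 1177 genes under 100 nt it was 0.861 nt in pcf11-13, −3.86 nt in pcf11-dNL and −1.53 and −2.26 nt in the wild type. For 2806 genes facing a convergent neighbour it was 1.1 nt in pcf11-13 and −12.5, −7.91 and −6.26 nt in pcf11-dNL and the wild type, and for 2322 tandem genes it was 1.4 nt against −4.31, −2.06 and −2.87 nt.

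**Figure D4:**
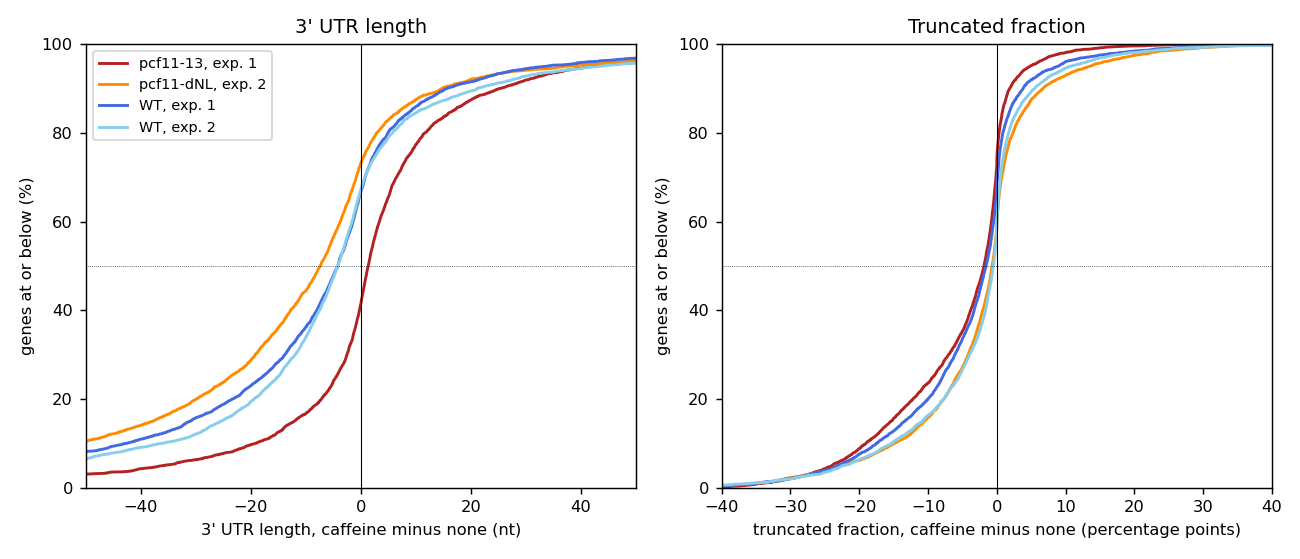
Cumulative share of genes by their caffeine minus none difference in mean 3′ untranslated region length (nt) and in truncated share (percentage points), 1 curve for each pair of libraries. The pcf11-13 length curve is centred at 1.35 nt and lies right of the other 3, whose medians are −7.39, −4.14 and −4.19 nt.

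Single genes had shorter regions with caffeine. GSP2, a Ran GTPase gene, had a mean length of 174 nt with and 415 nt without caffeine in pcf11-13, 206 nt with and 601 nt without in pcf11-dNL, and 171 and 161 nt with and 492 and 536 nt without in the wild type. SER1, a serine synthesis gene, had 250 nt with and 478 nt without in pcf11-13, and 179 and 168 nt with and 554 and 505 nt without in the wild type. Both genes were short in every treated library. Others differed by strain. GAA1, a gene for GPI anchor attachment, had 497 nt with and 492 nt without in pcf11-13, 404 nt with and 631 nt without in pcf11-dNL, and 385 and 392 nt with and 619 and 638 nt without in the wild type (difference in response 245 nt, limma adjusted p = 0.301). SEN54, a tRNA splicing endonuclease gene, had 471 nt with and 415 nt without in pcf11-13, and 331 and 320 nt with and 535 and 497 nt without in the wild type. RCN1, a calcineurin regulator gene, had 538 nt with and 318 nt without in pcf11-13, and 187 and 157 nt with and 193 and 238 nt without in the wild type. AEP2, needed for mitochondrial ATP synthase translation, had 571 nt with and 686 nt without in pcf11-13, and 702 and 572 nt with and 324 and 182 nt without in the wild type. SAM50, a mitochondrial outer membrane assembly gene, was alike in both pcf11-13 libraries, at 574 nt with and 571 nt without, against 409 and 527 nt with and 227 and 253 nt without in the wild type. MRPS28, a mitochondrial ribosomal protein gene, was longer with caffeine in every strain, at 388 nt with and 165 nt without in pcf11-13.

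Truncated transcripts took a smaller share of reads with caffeine in pcf11-13. Weighted by counts, 9.55% of reads were truncated with caffeine and 13.46% without, a difference of −3.91 points, against 0.69 points in pcf11-dNL and −0.33 and 0.621 points in the wild type. Per gene the median was 5.35% with and 8.53% without in pcf11-13. The median difference per gene was −1.85 points in pcf11-13, −0.672 in pcf11-dNL and −1.54 and −0.498 in the wild type, and −1.32 points between untreated wild-type libraries of experiments 2 and 1. Of 5167 genes, 99 were at least 10 points higher (1.92%) and 1218 at least 10 points lower (23.6%) in pcf11-13. At least 10 points lower were 819 genes in pcf11-dNL (15.9%), 1033 and 844 in the wild type (20% and 16.3%), and 763 between the untreated wild-type libraries (14.8%). limma called 0 genes for the response (0%) and 0 for its difference from the wild type (0%), with 732 and 412 at an unadjusted p under 0.05. Where 20 to 50% of untreated wild-type reads were truncated (1051 genes), the median difference was −14.6 points in pcf11-13, −7.22 in pcf11-dNL and −12.2 and −9.09 in the wild type.

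Several genes known for transcripts that end early were at least 10 points lower with caffeine in pcf11-13. DEF1, which targets stalled RNA polymerase II for degradation, had 24.8% of reads truncated with caffeine and 52.7% without in pcf11-13, 28.7% with and 66.6% without in pcf11-dNL, and 20.8 and 27.6% with and 55.8 and 66.4% without in the wild type. SIR1, a silencing gene, had 18.1% with and 57.8% without in pcf11-13, and 52.5 and 37.0% with and 86.3 and 79.6% without in the wild type. GCV1 had 8.61% with and 42.7% without in pcf11-13, and 8.50 and 4.06% with and 70.7 and 77.7% without in the wild type. These 3 genes were less truncated in every treated library. RAV1, for assembly of the vacuolar proton pump, had 19.4% with and 70.8% without in pcf11-13.

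Other genes differed in the opposite direction in pcf11-13, or hardly at all. CBP1 had 12.6% truncated with caffeine and 42.8% without in pcf11-13, whereas it had 59.2% with and 31.1% without in pcf11-dNL, and 60.1 and 47.0% with and 33.3 and 22.7% without in the wild type. HRP1 had 45.6% with and 68.9% without in pcf11-13, 84.2% with and 74.4% without in pcf11-dNL, and 81.3 and 77.1% with and 66.6 and 74.7% without in the wild type. RNA14 had 64.6% with and 78.5% without in pcf11-13, 85.1% with and 70.6% without in pcf11-dNL, and 85.3 and 72.9% with and 75.0 and 65.7% without in the wild type. For CBP1, HRP1 and RNA14 the treated pcf11-13 library was the lowest of the 4 treated ones, and it lay below its own untreated partner. DBP2, an RNA helicase gene, had 29.3% with and 27.0% without in pcf11-13, 72.2% with and 18.5% without in pcf11-dNL, and 57.7 and 72.0% with and 19.7 and 18.4% without in the wild type. APS1, a clathrin adaptor gene, had 79.9% with and 76.4% without in pcf11-13, and 38.5 and 20.3% with and 71.8 and 76.8% without in the wild type. BRR6, a nuclear envelope gene, had 60.0% with and 57.6% without in pcf11-13, and 75.6 and 77.2% with and 39.5 and 17.6% without in the wild type. DBP2, APS1 and BRR6 thus barely differed with caffeine in pcf11-13. Over 28 genes known for early or alternative ends, 12 were at least 10 points lower in pcf11-13 and 0 higher, beside 23.6% and 1.92% of all genes. Their median was −5.71 points in pcf11-13, −0.427 in pcf11-dNL, and −3.57 and −0.528 in the wild type. The median over all genes in pcf11-13 was −1.85 points. That median depended on the truncated share in untreated wild type. It was −0.21 points for 2144 genes under 5% and −5.97 points for 798 genes at 10 to 20%. The list was not matched to other genes on that share, so its median cannot be read as particular to early-end genes.

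**Figure D5:**
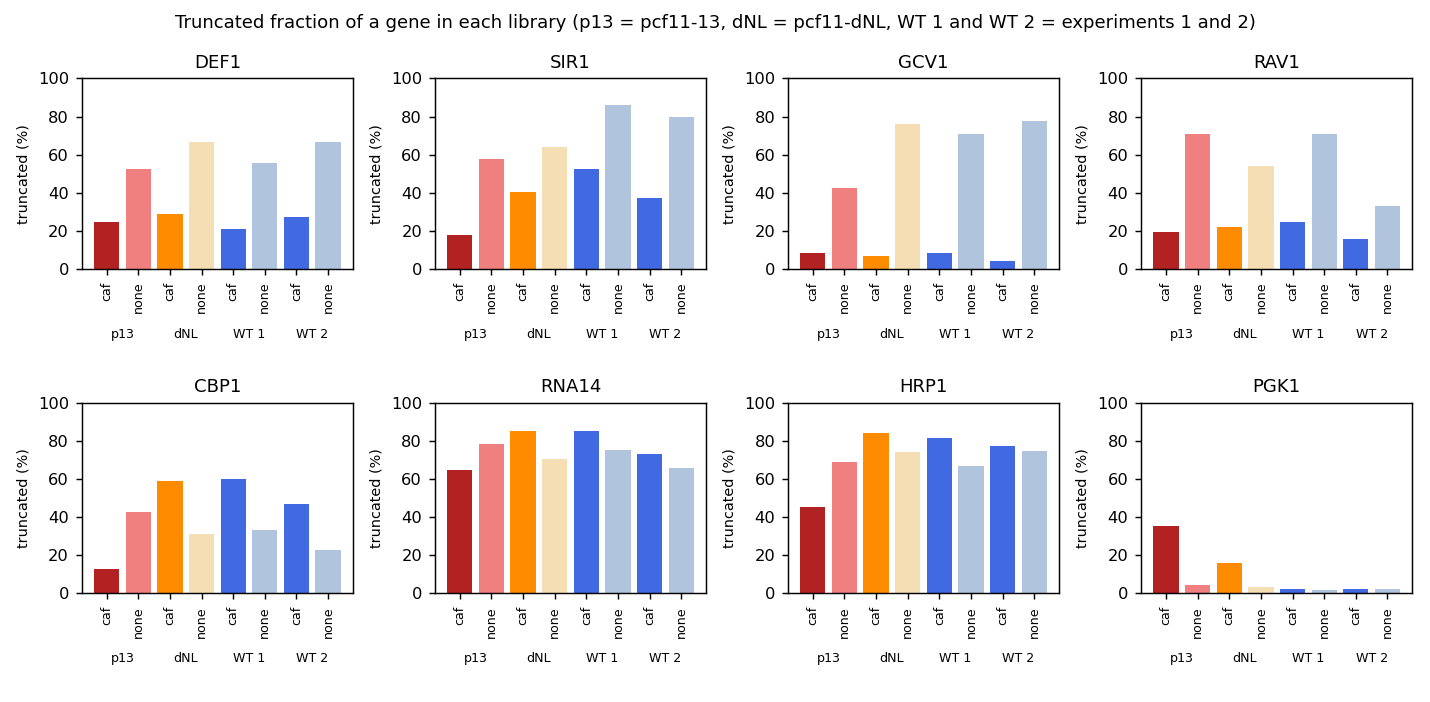
Truncated share of reads (percent, from 0) for 8 genes in each of the 8 libraries, 1 bar a library, caffeine left of none. DEF1, SIR1 and GCV1 are lower with caffeine in all 4 pairs, whereas CBP1, RNA14 and HRP1 are lower with caffeine in pcf11-13 and higher in the other 3 pairs.

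PGK1, the phosphoglycerate kinase gene, was more truncated with caffeine in both mutants. Its truncated share was 35.5% with caffeine and 4.32% without in pcf11-13, 16.0% with and 3.31% without in pcf11-dNL, and 2.48 and 2.41% with and 1.97 and 2.54% without in the wild type. Its level was 145 CPM with and 507 CPM without in pcf11-13. Both treated mutant libraries were high and all other libraries low. NPA3, a GTPase gene for polymerase II import, had 71.0% with and 38.7% without in pcf11-13, and 57.8 and 61.9% with and 31.2 and 18.7% without in the wild type.

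The proximal measure, a subset of the truncated fraction whose bounds no source used here gives, was the only measure with adjusted calls in the fits of all 8 libraries by edgeR and limma as described. limma called 97 of its genes for the response (1.88%), 49 higher and 48 lower, with 805 at an unadjusted p under 0.05. At least 10 points higher were 124 genes (2.4%) and at least 10 points lower 89 (1.72%). The calls were mostly small: their median size was 1.59 points, 61 were under 2 points and 13 reached 10 points. In 70 of the 97 the wild-type libraries of experiments 1 and 2 differed from each other by less than 0.1 points within each medium. The calls were lost with the experiment as a block or after leaving out any wild-type library. PGK1 had a proximal share of 35.4% with and 4.25% without in pcf11-13, 15.5% with and 3.31% without in pcf11-dNL, and 2.48 and 1.77% with and 1.18 and 2.28% without in the wild type (limma adjusted p = 0.0362, and 0.0585 to 0.964 under the alternatives that ended the call). DYN3, a dynein gene, had 16.8% with and 2.61% without in pcf11-13, and 4.59 and 4.40% with and 0.007 and 0.477% without in the wild type. VHR1, a transcription factor gene for biotin uptake, had 3.38% with and 14.6% without in pcf11-13, and 3.85 and 3.49% with and 10.8 and 10.1% without in the wild type. ERV1, a mitochondrial thiol oxidase gene, had 5.51% with and 12.2% without in pcf11-13, and 6.18 and 6.24% with and 12.2 and 12.0% without in the wild type. RPN4, the transcription factor gene for the proteasome, had 1.68% with and 6.52% without in pcf11-13, and 2.89 and 3.02% with and 15.4 and 15.5% without in the wild type. VHR1, ERV1 and RPN4 were thus lower with caffeine in both strains. For the difference from the wild-type response limma called 1 gene (0.0194%), DPH2, which acts in diphthamide synthesis, with 797 at an unadjusted p under 0.05. DPH2 had 1.03% with and 10.3% without in pcf11-13, 8.73% with and 0.011% without in pcf11-dNL, and 3.68 and 3.65% with and 0.013 and 0.006% without in the wild type (limma adjusted p = 0.0109).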

How the data were processed

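The 8 libraries were grouped by their labels into 6 groups, and all entered each fit. The authors deposited expected counts per gene (estimated counts, 9.72% of them whole), the mean 3′ untranslated region length in nt per gene, and the truncated and proximal fraction of reads. Per the submitters' processing notes the build was sacCer3. The aligner, the counting method and the strand setting were not given in the sources. The deposited counts were rounded, scaled by TMM and tested with edgeR 4.0.16 (quasi-likelihood, R 4.3.3), with DESeq2 1.42.0 as an alternative. Lengths and fractions were tested with limma 3.58.1, for genes that reached 20 counts in each of the 8 libraries. Each main model had 1 mean per group and 2 residual degrees of freedom, both from the wild-type libraries of experiments 1 and 2. Without 1 wild-type library, or with the experiment as a block, only 1 residual degree of freedom was left. The wild-type libraries of experiments 1 and 2 are separate labelled samples. Nothing given says that they come from separate cultures started independently, so the p-values measure only their spread. The contrasts were caffeine minus none in pcf11-13, and that response minus the wild-type one. P-values were Benjamini-Hochberg adjusted over all genes, with a threshold of 0.05. Log2 differences of library pairs used TMM-scaled CPM with a prior count of 2. Of 5933 gene IDs, 5919 matched the R64 annotation by name. In 5 genes 40 length values were −1 and were set aside. The fits were run on simulated data with no group or experiment differences beyond those put in. That run checks the code and not the error rates in these data. The members and gene lists were chosen with earlier results of these data known. The genes to name were the 10 called genes with the largest response in each direction at a mean of 50 counts, 8 for the difference from the wild type, 5 per poly(A) measure, up to 4 members plus 1 in the other direction per list, and the 3′-end processing and early-end genes by role. Since edgeR called none, these are given by size, without a call. Further list members, and AIM4, OCA2, LYS4, PST1 and PIR3, were chosen after their values were seen. The experiment number is given in the labels and marks a shared experiment; differences between experiments 2 and 1 in treated and untreated wild type correlated at 0.201 across 5471 genes.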

Additional observations from a re-analysis of the deposited data

Results flagged for a closer look

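For 10 gene lists the median log2 caffeine response in pcf11-13, scaled by TMM, had the opposite sign to both wild-type pairs. For these medians the difference itself was not tested, and some signs changed with the scaling or filter. Scaled by total counts, ribosome biogenesis had −0.019 in pcf11-13. Mitochondrially encoded genes then had 0.014 in the wild type of experiment 2, and TOR pathway genes −0.06 in that of experiment 1. With no filter on low counts, retrograde genes had 0.035 in the wild type of experiment 2. The values that follow are those scaled by TMM. Ribosome biogenesis genes (109) had a median of 0.028 in pcf11-13, −0.902 in pcf11-dNL, and −0.426 and −1.63 in the wild type of experiments 1 and 2. Cytosolic ribosomal protein genes (137) had 0.325 in pcf11-13, −0.117 in pcf11-dNL, and −0.262 and −1.059 in the wild type. RNA polymerase I and III subunit genes (21) had 0.128 in pcf11-13, −0.489 in pcf11-dNL, and −0.355 and −1.165 in the wild type. Retrograde response genes (10) had 0.261 in pcf11-13, −0.625 in pcf11-dNL, and −0.335 and −0.165 in the wild type. Cell wall integrity genes (40) had −0.130 in pcf11-13, 0.242 in pcf11-dNL, and 0.113 and 0.393 in the wild type. Respiratory chain and ATP synthase genes (41) had −0.076 in pcf11-13, 0.076 in pcf11-dNL, and 0.173 and 0.029 in the wild type. TOR pathway genes (35) had −0.025 in pcf11-13, 0.125 in pcf11-dNL, and 0.008 and 0.252 in the wild type. Mitochondrially encoded genes (8) had 0.078 in pcf11-13, −0.505 in pcf11-dNL, and −0.131 and −0.086 in the wild type. The a-specific genes (7) had −0.359 in the MATa pcf11-13 strain, 0.657 in pcf11-dNL, and 0.284 and 1.164 in the wild type, and the alpha-specific genes (5) had 0.113 in pcf11-13, −2.078 in pcf11-dNL, and −1.123 and −2.683 in the wild type. Mating type, tag and the PCF11 allele cannot be told apart between pcf11-13 and the other strains. The median difference in 3′ untranslated region length was 1.35 nt in pcf11-13, −7.39 nt in pcf11-dNL, and −4.14 and −4.19 nt in the wild type, and this too was not tested. For DPH2 the response of the proximal share in pcf11-13 minus that in the wild type was −12.919 points, by limma's test of the difference (adjusted p = 0.0109).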

How the results depend on the processing

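For the caffeine response in pcf11-13, where edgeR called 0 genes, DESeq2 called 60, and leaving out 1 wild-type library gave 0 to 172 calls. For its difference from the wild-type response, DESeq2 called 42 and leaving out 1 wild-type library gave 0 to 177. The count was 0 without either untreated wild-type library and 71 or more without either treated one. The truncated fraction gave 1 call with a variance trend and 0 otherwise. The 97 calls of the proximal response became 0 with the replicate block, 1 with a variance trend, 0 on the logit scale, 0 with read-class counts in edgeR (chosen after seeing the data) and 0 to 0 without 1 wild-type library. The single call of its difference became 5 at a minimum of 10 counts, and 0 at a minimum of 50, with the replicate block, on the logit scale, with class counts and without any 1 wild-type library. With the experiment as a replicate block all 8 tests gave 0 calls, so the block changed no other call. Among single genes only URA3 changed sign: the difference in its response was −2.93, and leaving out 1 wild-type library gave −8.415 to 4.925, the positive value being without the treated library of experiment 1. URA3 was high in both wild-type libraries of that experiment, and not in its pcf11-13 libraries. Of the counts past 2-fold, 295 higher and 231 lower, the lower one was 146 among genes with a mean of 100 counts or more, and both were within 1.5 times under the other settings tried. That minimum and a prior count of 0.5 were chosen after seeing the data. The cause of these changes was not tested. With 1 library on each side, the spread of pcf11-13 cultures themselves is unknown, and genes of low count have wide errors.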
